A study of Mus musculus with 8 samples.

Results

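The 10 genes described here encode glycosyltransferases that build the O-linked sugar chains of mucins, and they were taken by symbol from the 27179 entries of the count table: Galnt3, C1galt1, Gcnt1, Gcnt3, B3gnt6, B3gnt3, A4gnt, Fut2, St3gal1 and St6galnac1. They were measured by RNA-seq in EpCAM+ (epithelial surface protein) cells sorted from antral gastric tumors of 4 Gp130FF; Yap1KO mice and 4 Gp130FF; Yap1WT mice, with 1 library per mouse. All 8 mice carried the Gp130FF alleles, a knock-in mutation (Gp130 Y757F) of the cytokine receptor gp130 that leads to antral tumors. The labels give floxed Yap1 alleles for the Yap1KO mice and name the other group Yap1WT, whereas the study's methods describe Yap1WT cohorts that carried the same Yap1 fl/fl and Tff1:CreERT2 alleles without recombination. Per those methods, Yap1 was deleted by tamoxifen through the Cre recombinase Tff1:CreERT2. The study describes it as expressed in foveolar cells, the mucous cells of the gastric surface. From Tff1 expression in the tumors, the study also infers deletion in other epithelial cells, among them tumor epithelial, mucous neck and chief cells. Sorted epithelial cells that do not express Tff1 would keep the gene. Per the labels all mice were 18 weeks old and were taken 3 days after tamoxifen, whereas the methods describe vehicle for the Yap1WT mice, and under that description tamoxifen and genotype cannot be told apart. The methods give the same age as the labels, and the study's own account of its results gives an older one.

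O-glycosylation of a mucin begins in the Golgi, when a polypeptide GalNAc transferase places the first sugar, N-acetylgalactosamine, on a serine or threonine. Core enzymes then add galactose (core 1) or N-acetylglucosamine (core 3) and branch these cores, extension enzymes lengthen them, and fucose, sialic acid or a terminal alpha-linked N-acetylglucosamine completes the chain. In the stomach, surface foveolar cells make mainly the mucin Muc5ac and deeper gland mucous cells make Muc6, whose glycans carry the alpha-linked N-acetylglucosamine cap. Yap1 is a transcriptional coactivator of the Hippo pathway that binds DNA through TEAD factors.

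Total counts ranged between 18229945 and 74278015 per Yap1KO library and between 27607755 and 77483047 per Yap1WT library, the lowest being that of Yap1KO replicate 4. Yap1 itself had 21.3, 27.6, 29.7 and 24.2 CPM in Yap1KO replicates 1 to 4, against 77.1, 64.2, 78.0 and 72.5 CPM in Yap1WT replicates 1 to 4 (CPM are counts scaled to the library size with TMM factors throughout). It was lower in all 4 Yap1KO libraries, by -1.51 ± 0.13 on the log2 scale (SE; edgeR quasi-likelihood test, adjusted p = 0.000208). On the first principal component of the log2 CPM, Yap1KO replicate 4 lay at 66.8, against -6.37 to 1.34 for the other Yap1KO and -17.9 to -12.9 for the Yap1WT libraries, and it is named below where a result turns on it.

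None of the genes passed the test between Yap1KO and Yap1WT tumors. Of the 10, 8 had more than 0.5 CPM in at least 6 of the 8 libraries and were tested. At an adjusted p under 0.05 edgeR called 0 of these 8, beside 5.87% of all 13495 genes tested (3.53% higher and 2.34% lower in Yap1KO). At an unadjusted p under 0.05 there was 1 gene higher in Yap1KO (Galnt3) and 0 lower, beside 1547 higher and 1210 lower of all 13495. DESeq2 called 1 higher (Galnt3) and 0 lower, beside 858 and 587 over all genes tested. Limma-voom called 0 in either direction, beside 571 higher and 385 lower over all genes tested. The groups overlapped for all 8 genes, beside 13.2% of all genes tested without overlap (7.19% higher and 6.01% lower in Yap1KO). With 8 genes, none of these counts can be told apart from the share over all genes. The median log2 fold change was 0.08 over the 8 genes and -0.01 over all genes tested, with 5 of the 8 above 0 and 3 below. In simulated counts with the spread of these libraries (13495 genes), 67, 67 and 66 genes were given a 1.5-, 2- and 4-fold difference. Of these, edgeR called 10.4% at 1.5-fold, 47.8% at 2-fold and 81.8% at 4-fold. The changed genes were drawn at random from all genes tested, whatever their level and spread. These shares are thus averages and not the rates for the 8 genes here. The data had 792 calls, and more differences make the adjusted threshold less strict, so the share found in the data may be higher. The intervals given below say more than the missing calls. In these bulk samples fewer cells of a type and less RNA per cell cannot be told apart.

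**Figure D1:**
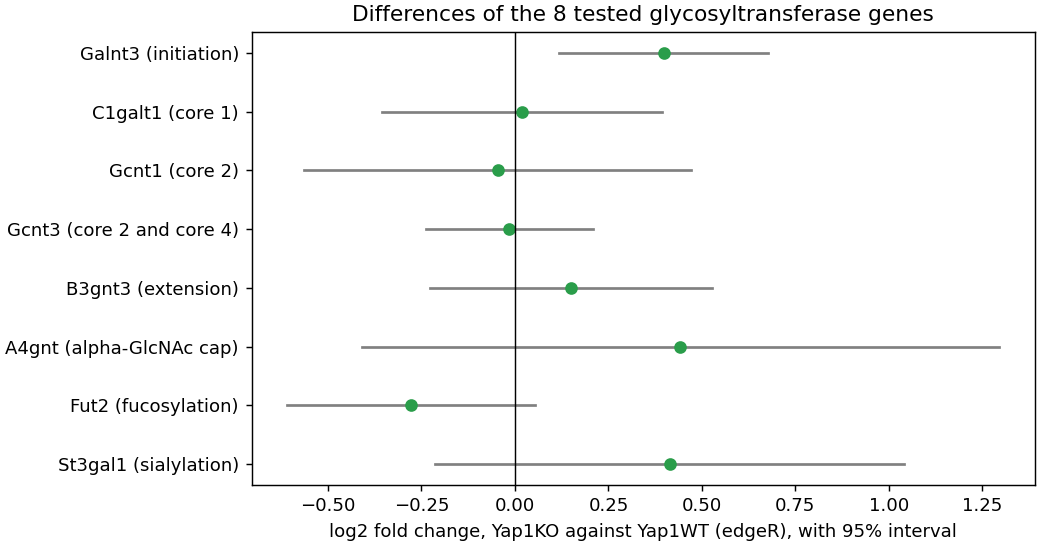
Differences of the 8 tested glycosyltransferase genes between Yap1KO and Yap1WT tumors, as log2 fold change (x axis) with the 95% interval from edgeR, 1 gene per line. The interval of Galnt3 runs between 0.12 and 0.68 without passing the adjusted test, the other 7 intervals include 0, and the narrowest is that of Gcnt3 (-0.24 to 0.21).

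To place the genes by abundance, levels were compared per gene length in the deposited log2 RPKM values, in which reads are divided by gene length and library size. On this scale Gcnt3 was the highest, with 7.50 ± 0.08 in Yap1KO and 7.50 ± 0.05 in Yap1WT (SD, n = 4 each). It was followed by B3gnt3 (7.34 ± 0.27 in Yap1KO and 7.18 ± 0.24 in Yap1WT) and C1galt1 (6.66 ± 0.38 and 6.65 ± 0.08). The chain-building enzymes that stood highest per length were thus the core 2 and core 4 branching enzyme, a core 1 extension enzyme and the core 1 enzyme. Next in log2 RPKM were Fut2 (6.37 ± 0.20 in Yap1KO and 6.61 ± 0.23 in Yap1WT), Galnt3 (6.03 ± 0.22 and 5.61 ± 0.09) and A4gnt (5.37 ± 0.66 and 4.85 ± 0.78). Gcnt1 (1.32 ± 0.45 in Yap1KO and 1.44 ± 0.30 in Yap1WT) and St3gal1 (1.24 ± 0.47 and 0.88 ± 0.50) lay far below these, and B3gnt6 lower still (-2.58 ± 1.78 and -2.70 ± 1.41). The order of the 9 genes by mean was the same in both groups, and St6galnac1 is not among the log2 values used here. Neighbours in this order whose libraries overlapped were Gcnt3 with B3gnt3, C1galt1 with Fut2 and Gcnt1 with St3gal1 in both groups, and also Fut2 with Galnt3 and Galnt3 with A4gnt in Yap1KO. The steps from B3gnt3 down to C1galt1, from A4gnt down to Gcnt1 and from St3gal1 down to B3gnt6 held without overlap in both groups.

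**Figure D2:**
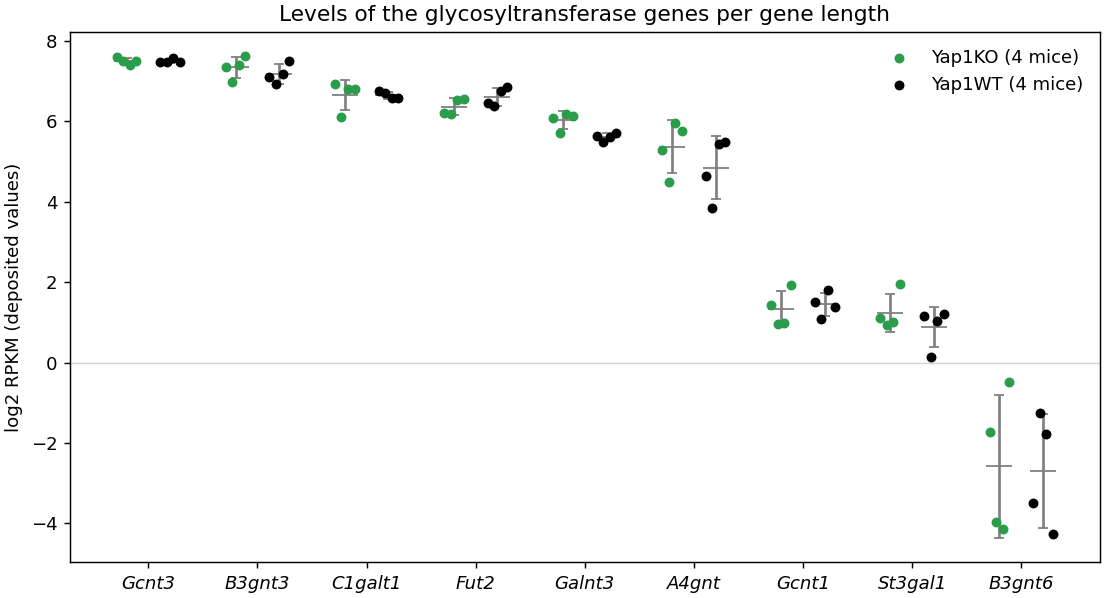
Deposited log2 RPKM (y axis, a log scale of reads per gene length) of 9 of the glycosyltransferase genes in each library, Yap1KO (green) left of Yap1WT (black), with 1 point per mouse and the mean ± SD of the group in grey. Gcnt3 is highest at 7.50 in both groups, Gcnt1 and St3gal1 lie between 0.88 and 1.44 on average, and B3gnt6 is lowest and most widely spread.

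Galnt3 (gene ID 14425, minus strand, chr2:66082766-66124994, GRCm38) encodes a GalNAc transferase of the initiating step. It had 255, 184, 254 and 261 CPM in Yap1KO replicates 1 to 4, against 179, 165, 185 and 195 CPM in Yap1WT replicates 1 to 4. The Yap1KO libraries 1, 3 and 4 lay above every Yap1WT library, and replicate 2 lay within the Yap1WT range. The means were 238 ± 36.7 CPM in Yap1KO and 181 ± 12.8 CPM in Yap1WT (SD, n = 4 each). The log2 fold change was 0.40 ± 0.13 (SE), with a 95% interval of 1.09- to 1.60-fold before adjustment, and the edgeR adjusted p was 0.103. The call depended on tool and library, since the adjusted p was 0.0420 with DESeq2 and 0.0589 with limma-voom. Without Yap1KO replicate 2 the edgeR value was 0.51 with an adjusted p of 0.0130, and over all 8 such fits the adjusted p ranged between 0.0130 and 0.233.

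Since Yap1 acts through TEAD factors and the tumors through gp130 and STAT3, the promoters were read for both kinds of motif. The RefSeq promoter table (GRCm38.p6, 250 bases before to 50 after a start) held 7 windows for 5 of the 10 genes (Galnt3, C1galt1, Gcnt1 with 3 starts, B3gnt3 and A4gnt). The TEAD motif GGAATG, searched on both strands, was in 1 of the 7 windows and in 14.7% of all 32851 promoters of the table. The STAT motif TTCNNNGAA, which reads alike on both strands, was in 0 of the 7 and in 8.3% of all promoters. The windows printed are that of Gcnt1 with the TEAD motif in capitals, 186 bases before the start (chr19:17339456-17339755, minus strand), and that of Galnt3, whose difference came nearest to the threshold (chr2:66124744-66125043, minus strand, neither motif, hence no capitals). A match is a run of letters and no measured binding site.
Gcnt1: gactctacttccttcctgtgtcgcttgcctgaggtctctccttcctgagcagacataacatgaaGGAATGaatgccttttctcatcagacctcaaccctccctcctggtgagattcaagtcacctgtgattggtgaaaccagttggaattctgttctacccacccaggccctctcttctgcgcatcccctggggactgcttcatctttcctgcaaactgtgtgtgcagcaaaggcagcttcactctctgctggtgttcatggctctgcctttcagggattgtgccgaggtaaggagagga
Galnt3: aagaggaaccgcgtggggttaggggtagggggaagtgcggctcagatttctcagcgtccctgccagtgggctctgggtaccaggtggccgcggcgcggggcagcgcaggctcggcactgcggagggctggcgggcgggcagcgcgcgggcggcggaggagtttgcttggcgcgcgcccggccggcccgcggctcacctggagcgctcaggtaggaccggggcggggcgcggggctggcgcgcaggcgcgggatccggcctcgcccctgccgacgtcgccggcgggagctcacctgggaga

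Among the core enzymes, C1galt1 (94192, plus strand, chr6:7844842-7875687) adds galactose to form core 1. It had 259, 136, 219 and 225 CPM in Yap1KO replicates 1 to 4, against 214, 211, 204 and 199 CPM in Yap1WT replicates 1 to 4. The Yap1KO libraries lay on both sides of the narrow Yap1WT range, with the coefficient of variation at 24.8% in Yap1KO and 3.28% in Yap1WT. The log2 fold change was 0.02 ± 0.17 (SE; edgeR adjusted p = 0.968), with a 95% interval of 0.782- to 1.31-fold, and its sign turned without Yap1KO replicate 1 (-0.10) or 4 (-0.013).

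Gcnt3 (72077, minus strand, chr9:70031496-70038088) makes the core 2 and core 4 branches of mucins. It had 812, 768, 681 and 777 CPM in Yap1KO replicates 1 to 4, against 738, 735, 831 and 768 CPM in Yap1WT replicates 1 to 4. The libraries of both groups were spread over nearly the same range, and the coefficient of variation, 7.35% in Yap1KO and 5.79% in Yap1WT, was low in both. Its log2 fold change was -0.02 ± 0.10 (SE; edgeR adjusted p = 0.956). Its 95% interval, 0.847- to 1.15-fold, was the narrowest of the 8 genes and bounds a difference in either direction.

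Gcnt1 (14537, minus strand, chr19:17326141-17372844), the core 2 enzyme of many tissues, had 12.4, 9.60, 9.62 and 17.7 CPM in Yap1KO replicates 1 to 4, against 13.4, 10.2, 15.6 and 11.6 CPM in Yap1WT replicates 1 to 4. Highest and lowest library were both from Yap1KO. Its log2 fold change was -0.05 ± 0.23 (SE; edgeR adjusted p = 0.943), with an interval of 0.676- to 1.39-fold. The gene with the TEAD motif in a promoter window thus had no call, and a difference of up to the bounds of that interval cannot be told at this depth and spread.

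B3gnt6 (272411, minus strand, chr7:98192417-98199481) encodes the core 3 enzyme, which is known from colon and stomach epithelium. It was too low for the test, with 41, 13, 23 and 29 reads in Yap1KO replicates 1 to 4, against 30, 46, 35 and 0 reads in Yap1WT replicates 1 to 4. These amounted to 0.758, 0.410, 0.297 and 1.58 CPM in Yap1KO and 0.387, 1.07, 0.507 and 0 CPM in Yap1WT. With the filter set at 4 libraries the gene was tested, at a log2 fold change of 0.57 and an edgeR adjusted p of 0.799.

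For the extension of core 1, B3gnt3 (72297, minus strand, chr8:71690756-71701789) adds N-acetylglucosamine. It had 347, 252, 339.6 and 412 CPM in Yap1KO replicates 1 to 4, against 278, 249, 311 and 379.9 CPM in Yap1WT replicates 1 to 4. In each group replicate 2 was the lowest and replicate 4 the highest library. The fitted log2 fold change was 0.15 ± 0.17 (SE; edgeR adjusted p = 0.683), with an interval of 0.854- to 1.44-fold.

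A4gnt (333424, plus strand, chr9:99612502-99622367) adds the alpha-linked N-acetylglucosamine that caps gland mucin. It had 107, 59.0, 163 and 147 CPM in Yap1KO replicates 1 to 4, against 66.4, 39.1, 122 and 123 CPM in Yap1WT replicates 1 to 4. Replicates 1 and 2 were low and replicates 3 and 4 high in both groups, so that the coefficient of variation was 39.0% in Yap1KO and 47.5% in Yap1WT, the widest spread of the 8 tested genes. The log2 fold change was 0.44 ± 0.38 (SE; edgeR adjusted p = 0.578), with an interval of 0.753- to 2.45-fold.

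The split between replicates ran along the mouse numbers in the labels, since replicates 1 and 2 of both groups come from an earlier run of numbers and replicates 3 and 4 from a later one. Whether these series are litters or cohorts is not given in the sources used here. Within the earlier series A4gnt averaged 82.8 CPM in Yap1KO and 52.8 CPM in Yap1WT, and within the later series it averaged 155 CPM in Yap1KO and 122 CPM in Yap1WT. Both series thus had the higher mean in Yap1KO, by a log2 fold change of 0.65 in the first (edgeR adjusted p = 0.523) and 0.34 in the second (0.665), and with the series as a block it was 0.50 (0.188). The level moved more with the series than with the genotype. The part of the mouse series in these levels was not tested apart from these fits.

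**Figure D3:**
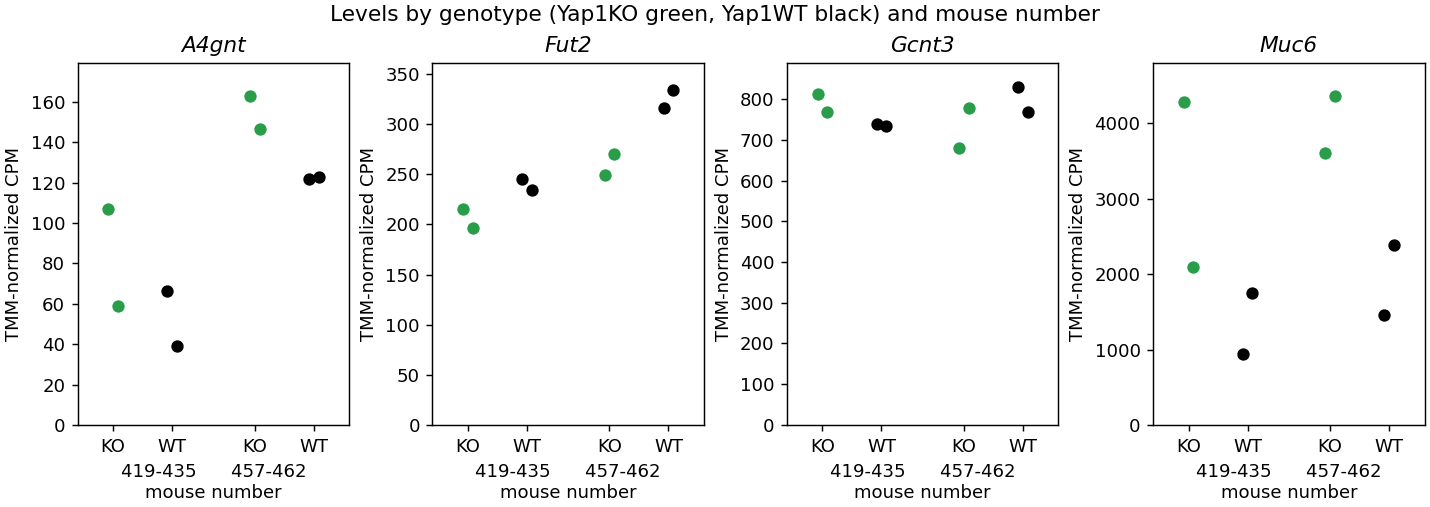
TMM-normalized CPM (y axes) of A4gnt, Fut2, Gcnt3 and the mucin gene Muc6 by genotype, Yap1KO left of Yap1WT, within the earlier and the later series of mouse numbers, with 1 point per mouse. A4gnt and Fut2 are higher in the later series in both genotypes, and Fut2 of Yap1KO lies below Yap1WT within each series.

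Fut2 (14344, minus strand, chr7:45648591-45666394) adds the terminal alpha1,2-linked fucose of the H antigen in secretory epithelia. It had 215, 196, 249.7 and 270.2 CPM in Yap1KO replicates 1 to 4, against 245, 235, 316 and 334 CPM in Yap1WT replicates 1 to 4. The groups overlapped over all mice, whereas within each mouse series both Yap1KO libraries lay below both Yap1WT libraries. The means were 206 CPM in Yap1KO and 239.8 CPM in Yap1WT in the earlier series, and 260.0 CPM in Yap1KO and 325 CPM in Yap1WT in the later series. Over all mice the log2 fold change was -0.28 ± 0.15 (SE; edgeR adjusted p = 0.338), with an interval of 0.655- to 1.04-fold, and with the series as a block the adjusted p was 0.0938. The neighbouring family members Fut1 and Sec1 had 85 and 351 reads over all 8 libraries, against 102383 for Fut2.

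Of the sialyltransferases, St3gal1 (20442, minus strand, chr15:67102875-67176830) caps core 1 with sialic acid. It had 12.2, 11.3, 11.8 and 21.8 CPM in Yap1KO replicates 1 to 4, against 12.8, 6.36, 10.8 and 12.6 CPM in Yap1WT replicates 1 to 4. Only Yap1KO replicate 4, the library that stood apart on the first principal component, lay above every Yap1WT library. The log2 fold change was 0.41 ± 0.28 (SE; edgeR adjusted p = 0.465), with an interval of 0.863- to 2.06-fold, and without that library it was 0.14 (adjusted p = 0.821). Without Yap1WT replicate 2, the lowest library, it was 0.23 (edgeR adjusted p = 0.699). With a term for sex it was 0.57 (edgeR adjusted p = 0.128). St6galnac1 (20445, minus strand, chr11:116765025-116775507), the enzyme of the sialyl-Tn antigen, had 3 reads in Yap1KO replicate 3 and 0 in the other 7 libraries. A count of 0 allows up to 3 reads, or between 0.0387 and 0.164 CPM per library, so expression was not detectable above that level and no fold change is given.

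No exon of the 10 genes overlapped an exon of another gene in the GENCODE vM21 annotation. The reads were counted by the authors on a RefSeq annotation, which was not checked, so mixing by unstranded counting was not tested for these counts. In RefSeq A4gnt begins at 99591179, before the start checked here (99612502). Summed over the 10 genes, the libraries held between 1617 and 2133 CPM in Yap1KO and between 1650 and 2023 CPM in Yap1WT.

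The other enzymes of the same pathway were read from a list of 54 genes in the table, of which 41 were tested. Here 7 were higher in Yap1KO and 0 lower by edgeR, which is 17.1% higher, against 3.53% higher and 2.34% lower of all genes tested. At an unadjusted p under 0.05 the counts were 13 higher and 3 lower, beside 1547 and 1210 over all 13495 genes. DESeq2 called 9 higher and 0 lower, beside 858 and 587 over all genes. Limma-voom called 9 higher and 0 lower, beside 571 and 385 over all genes. The median log2 fold change of the 41 was 0.33, against -0.01 over all genes tested. By role, the calls fell on 3 of 11 genes of the GalNAc transferase family, 2 of 4 sulfotransferases and 2 of 4 enzymes of terminal antigens. Among 8 extension enzymes, 8 sialyltransferases and 3 fucosyltransferases, edgeR, DESeq2 and limma-voom called 0, with 2, 1 and 0 higher and 0, 1 and 1 lower at an unadjusted p under 0.05. The difference between these genes and the 8 above was not tested.

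**Figure D4:**
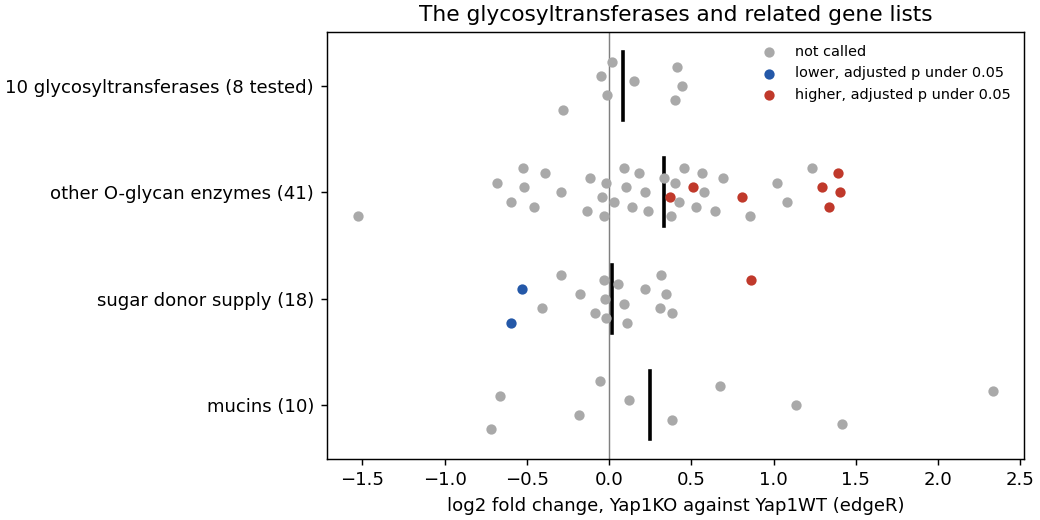
Log2 fold change (Yap1KO over Yap1WT, x axis) of each tested gene in the glycosyltransferase set and the related lists (lines), coloured by the edgeR call, with a black bar at the median of each list (0.08, 0.33, 0.02 and 0.25, top to bottom). The set has 0 of 8 genes called, the other O-glycan enzymes 7 of 41 higher, and the sugar donor supply 1 higher and 2 lower of 18. Of all genes tested, 3.53% were called higher and 2.34% lower.

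Ggta1, which makes the terminal alpha-galactose epitope, had 76.3, 57.6, 88.9 and 106 CPM in Yap1KO replicates 1 to 4, against 24.2, 31.5, 30.3 and 44.5 CPM in Yap1WT replicates 1 to 4. Galnt18, of the GalNAc transferase family, had 59.4, 72.1, 61.1 and 47.9 CPM in Yap1KO replicates 1 to 4, against 25.1, 32.8, 13.2 and 19.9 CPM in Yap1WT replicates 1 to 4. The groups did not overlap for either gene. The log2 fold changes were 1.34 ± 0.22 for Ggta1 (SE; edgeR adjusted p = 0.00583) and 1.40 ± 0.25 for Galnt18 (0.00864), and both calls remained without any 1 of the 8 libraries. The GalNAc transferases Galnt10 and Galnt1 rose less. Galnt10 averaged 67.0 ± 9.10 CPM in Yap1KO and 47.1 ± 5.52 CPM in Yap1WT (SD, n = 4 each; log2 fold change 0.51, edgeR adjusted p = 0.0406). Galnt1 averaged 273 ± 22.2 CPM in Yap1KO and 211 ± 10.1 CPM in Yap1WT (0.37, adjusted p = 0.0481). Of the sulfotransferases that act on N-acetylglucosamine, Chst2 averaged 8.31 ± 2.14 CPM in Yap1KO and 3.17 ± 1.10 CPM in Yap1WT (log2 fold change 1.39, edgeR adjusted p = 0.0372). Chst4 averaged 27.6 ± 8.94 CPM in Yap1KO and 11.2 ± 4.43 CPM in Yap1WT (1.30, adjusted p = 0.0450), with overlap between the groups. Abo, the mouse counterpart of the human blood group gene, averaged 48.3 ± 6.15 CPM in Yap1KO and 27.6 ± 8.76 CPM in Yap1WT (0.81, edgeR adjusted p = 0.0490). These 5 calls were close to the threshold. Without Yap1WT replicate 1 or 3 or without Yap1KO replicate 1 or 4 2 of the 41 enzymes were called higher, without Yap1KO replicate 3 it was 3, and without Yap1WT replicate 2 it was 4.

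The activated sugars that these enzymes use are made by other genes, of which 18 were tested and 1 was higher and 2 were lower in Yap1KO by edgeR (median log2 fold change 0.02). These are 5.56% higher and 11.1% lower, against 3.53% higher and 2.34% lower of all genes tested. The difference between this list and all genes was not tested. Gne, the bifunctional enzyme that starts the synthesis of sialic acid, had 114, 75.5, 119 and 124 CPM in Yap1KO replicates 1 to 4, against 57.8, 52.8, 61.9 and 65.3 CPM in Yap1WT replicates 1 to 4. All Yap1KO libraries lay above all Yap1WT libraries, at a log2 fold change of 0.86 ± 0.15 (SE; edgeR adjusted p = 0.00909). Uap1, which makes UDP-N-acetylglucosamine and UDP-N-acetylgalactosamine, fell to 119 ± 10.1 CPM in Yap1KO, against 179.5 ± 19.3 CPM in Yap1WT (SD, n = 4 each; log2 fold change -0.60, edgeR adjusted p = 0.0105). Gmds, of the GDP-fucose pathway, fell to 363 ± 25.6 CPM in Yap1KO, against 524 ± 38.3 CPM in Yap1WT (-0.53, adjusted p = 0.0122). The calls of Gne, Uap1 and Gmds remained without any 1 of the 8 libraries.

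Of the mucin genes, the carriers of these chains, 10 of 13 were tested. Here 0 were called by edgeR or limma-voom, beside 3.53% higher and 2.34% lower of all genes tested by edgeR. At an unadjusted p under 0.05, 1 was higher and 0 lower, and DESeq2 called the same 1 higher. That gene was Muc6, with 4285, 2094, 3608 and 4357 CPM in Yap1KO replicates 1 to 4, against 936, 1749, 1455 and 2391 CPM in Yap1WT replicates 1 to 4. Yap1KO replicate 2 lay below the highest Yap1WT library. The log2 fold change was 1.14 ± 0.30 (SE), and its adjusted p was 0.0543 with edgeR, 0.000424 with DESeq2 and 0.0550 with limma-voom. The membrane mucin Muc1 averaged 881 ± 92.6 CPM in Yap1KO and 999 ± 178 CPM in Yap1WT (SD, n = 4 each; -0.18, edgeR adjusted p = 0.534).

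Markers of the cell types that the sort could hold moved between the groups as well. Of all genes tested, edgeR called 3.53% higher and 2.34% lower. Over the same 13495 genes, 1547 were higher and 1210 lower at an unadjusted p under 0.05. DESeq2 called 858 higher and 587 lower over all genes, and limma-voom 571 and 385. The 7 gland mucous markers summed to between 60657 and 79621 CPM in Yap1KO and between 38786 and 59010 CPM in Yap1WT. Most of this sum was Tff2, with means of 60127 CPM in Yap1KO and 42659 CPM in Yap1WT. Its groups overlapped, and its log2 fold change was 0.50 at an edgeR adjusted p of 0.192. Of the 7, edgeR called 4 higher (Aqp5, Sox9, Cd44 and Glipr1), whereas Muc6, Tff2 and Pgc were not called. The log2 fold changes of the 7 were above 0 for 6 and below 0 for 1, Pgc (-0.89, edgeR adjusted p = 0.526). The study names Cd44 among surface molecules with raised expression in Yap1-depleted gastric tumor cells. Whether the 4 calls reflect gland mucous cells was not tested. The 8 foveolar markers summed to between 24141 and 40910 CPM in Yap1KO and between 32425 and 64203 CPM in Yap1WT, with Mucl3 and Capn8 called lower and Gkn3 called higher. The other 7 log2 fold changes of this list were below 0. Gkn3 is known in the mouse from mucous cells of the glands rather than the surface, but it is counted here in the foveolar list. With Gkn3 above 0 in this list and Pgc below 0 in the gland list, neither list moved in a single direction. Of their most abundant genes, Gkn1 was at a log2 fold change of -0.62 (edgeR adjusted p = 0.172) and Gkn2 at -0.95 (0.109). The foveolar mucin Muc5ac was detected in all libraries, with 16.7 to 464 CPM in Yap1KO and 193 to 626 CPM in Yap1WT. The 12 endothelial markers summed to between 585 and 1195 CPM in Yap1KO and between 188 and 675 CPM in Yap1WT, with 12 of 12 log2 fold changes above 0 and 1 called higher by edgeR (Tie1), 6 by DESeq2 and 8 by limma-voom, and 10 higher and 0 lower at an unadjusted p under 0.05. Among them, Plvap and Pecam1 had log2 fold changes of 1.39 and 1.22 (edgeR adjusted p = 0.0649 and 0.0635). The 10 fibroblast markers summed to between 431 and 1343 CPM in Yap1KO and between 132 and 910 CPM in Yap1WT, with 0 called by edgeR, DESeq2 or limma-voom and 2 higher and 0 lower at an unadjusted p under 0.05 (log2 fold change of Col3a1 1.05, edgeR adjusted p = 0.374, and of Sparc 1.24, 0.128). The 14 leukocyte markers, of which 5 were tested and 1 (Cd68) was called higher, summed to between 278 and 725 CPM in Yap1KO and between 75.5 and 268 CPM in Yap1WT. Of the 5, 2 had log2 fold changes above 0 and 3 below (median -0.31). At an unadjusted p under 0.05, 2 were higher and 1 was lower. The most abundant were the mast cell protease Mcpt2 (log2 fold change 2.44, edgeR adjusted p = 0.0622) and Cd14 (-0.31, 0.529). The lymphocyte markers Cd3e and Ms4a1 had 7 and 15 reads over all 8 libraries. The epithelial markers summed to between 8593 and 10942 CPM in Yap1KO and between 9336 and 11248 CPM in Yap1WT, and within them Epcam, the gene of the sort marker, had 1524 to 1759 CPM in Yap1KO and 938 to 1036 CPM in Yap1WT (log2 fold change 0.76, edgeR adjusted p = 0.00188). The keratin genes Krt8 and Krt19, the most abundant of the list, had log2 fold changes of -0.20 and -0.42 (edgeR adjusted p = 0.452 and 0.0999). The part of these markers in the values of the glycosyltransferases was not tested.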

How the data were processed

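RNA of EpCAM+ tumor cells was sequenced from 8 mice, 4 per group. Per the methods, the authors used the TruSeq RNA v2 protocol, a kit that does not mark strand, aligned the reads with Subread to GRCm38/mm10 and counted them with featureCounts. The deposited raw counts are whole numbers without normalization. The deposited log2 values are log2 RPKM made by the authors with voom and quantile normalization, although their header names FPKM, and their length scaling is not described. They were used here for levels between genes and in the limma-trend alternative.

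Of the count table, 8 columns matched the samples by mouse number and 6 others were not used. Entries without a symbol (1277, holding 0.552% to 0.789% of the counts) and 762 pseudogenes were left out. Groups were tested by edgeR 4.0.16 in R 4.3.3 (TMM, quasi-likelihood F test, genotype alone, Benjamini-Hochberg adjustment over all 13495 genes above 0.5 CPM in at least 6 libraries). "Called" means an adjusted p under 0.05. SE were derived from the F value of each gene, and SD are over 4 mice. P-values measure the spread between mice, and floors for counts of 0 cover counting error only. The common biological coefficient of variation was 0.283. The test was tried on simulated counts.

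The 10 genes and all lists were chosen with earlier results of these data known. Named were all 10 genes, Yap1, up to 6 called genes per direction in the enzyme, donor and mucin lists (or the 2 most abundant), and the 2 most abundant markers of each cell type list. Abo, Epcam, Muc5ac, Pgc, Fut1, Sec1, the called markers and the lymphocyte genes were named after their values were seen. Further lists (intestinal, parietal and chief, and enteroendocrine and tuft markers) had 0 called higher by edgeR of 6, 3 and 6 tested genes, and 1, 0 and 0 called lower (1, 0 and 3 higher and 1, 2 and 0 lower at an unadjusted p under 0.05, 0, 0 and 0 higher and 1, 1 and 0 lower by DESeq2, 1, 0 and 0 higher and 1, 0 and 0 lower by limma-voom). Their most abundant genes were Vil1 and Fcgbp, Cblif and Atp4a, and Chgb and Chga, and none of these was called by edgeR. Alternatives were DESeq2 1.42.0, limma 3.58.1 (voom and trend), other scalings, other filters, blocks for replicate number and mouse series, a term for sex, and leaving out each library. Sex was read from Xist and Ddx3y, by which Yap1KO replicate 4 and Yap1WT replicates 1 and 4 were female and the rest male. Fits within each mouse series were added after seeing the data. The result of 1 marker gene is not reported here.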

Additional observations from a re-analysis of the deposited data

Results flagged for a closer look

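In 3 of 19 groups of 4 libraries, 1 library lay far from the other 3 of its group, by the gap to its neighbour as a share of the range, a test that chance passes about 1 time in 20 per group. Galnt3 had 184 CPM in Yap1KO replicate 2, against 254 to 261 CPM in the other Yap1KO libraries. St3gal1 had 21.8 CPM in Yap1KO replicate 4, the library with the lowest total count, against 11.3 to 12.2 CPM in the other Yap1KO libraries. St6galnac1 had 0.0387 CPM in Yap1KO replicate 3, which is 3 reads, and 0 in the other 3, and with 3 libraries at 0 any read count would be picked out, so the chance rate does not apply to this gene.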

How the results depend on the processing

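Of the 10 genes, the number called higher was 0 in the fit reported, 1 with DESeq2 (Galnt3, adjusted p 0.0420), 2 with the replicate number as a block (Galnt3 at 0.39, adjusted p 0.0396, and A4gnt at 0.49, adjusted p 0.0204) and 0 to 1 when 1 library was left out (1 without Yap1KO replicate 2), and the number called lower was 0 in all 23 alternatives. Of the other O-glycan enzymes, the number called higher was 7 in the fit reported and 2 to 7 with 1 library left out. It was 0 within the earlier mouse series and 2 within the later mouse series. With the filter at 4 libraries 5 were called higher, and with the replicate block 10 were called higher and 1 lower. Differences near 0 changed sign without a call: C1galt1 was -0.017 with the replicate block, -0.10 within the earlier mouse series and -0.10 to 0.18 with 1 library left out, Gcnt1 was -0.27 to 0.070 with 1 library left out, and Gcnt3 was 0.0038 with limma-voom, 0.0017 with limma-trend, 0.10 within the earlier mouse series and -0.050 to 0.037 with 1 library left out. The cause was not tested. Whether replicate numbers pair the mice is not given in the sources used here. The deviations of same-numbered libraries correlated at r = 0.0788, 0.404, 0.114 and 0.215 for numbers 1 to 4. Replicates 2 and 4 of Yap1KO correlated best with their own number, and replicates 1 and 3 with another. So few correlations cannot decide whether the mice were paired, and the replicate block is given as an alternative only. Over all genes, 476 were called higher and 316 lower in the fit reported, 858 and 587 with DESeq2, 755 and 552 with the replicate block, 247 and 158 without Yap1WT replicate 3, and 58 and 42 within the earlier mouse series and 245 and 172 within the later mouse series. With the term for sex, 614 were called higher and 325 lower over all genes. In that fit 0 of the 10 genes and 6 of the other O-glycan enzymes were called higher. Depth limits B3gnt6 and St6galnac1, which were too low for the test.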

Other observations

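Some further genes of the pathway had no overlap between the groups without passing the adjusted test, and they were picked after their values were seen. Of the 41 other O-glycan enzymes tested, 9 had every Yap1KO library above every Yap1WT library and 0 the reverse, against 7.19% and 6.01% of all genes tested. Galnt12, an initiating transferase, had 191 to 261 CPM in Yap1KO and 149.7 to 178 CPM in Yap1WT (log2 fold change 0.42, edgeR adjusted p = 0.0613). Gcnt2, the I-branching enzyme, had 46.9 to 57.7 CPM in Yap1KO and 22.6 to 41.4 CPM in Yap1WT (0.64, edgeR adjusted p = 0.0693). Of the 18 sugar donor genes tested, 5 had every Yap1KO library above and 3 every Yap1KO library below every Yap1WT library. Besides the called genes Gne, Uap1 and Gmds these were Pgm3 (log2 fold change 0.38), Nans (0.31), Gfus (0.22) and Slc35a2 (0.11), with edgeR adjusted p between 0.0984 and 0.483, and Slc35a1. Slc35a1, the Golgi transporter of CMP-sialic acid, had 63.3 to 84.5 CPM in Yap1KO and 89.1 to 112 CPM in Yap1WT (-0.41, edgeR adjusted p = 0.0662).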
